A study of Mus musculus with 20 samples.

Results

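Collagen chain genes encode the proteins that wind around one another into collagen molecules, and 44 of the 56941 gene rows of the count table were such genes. They were chosen by name: every row whose Ensembl identifier belongs to a protein-coding mouse gene with a symbol of the form Col, number, a, number. They were sorted by textbook class into 11 fibrillar, 6 basement membrane (type IV) and 6 type VI chains, 9 chains of fibril-associated collagens with interrupted triple helices (FACIT), and 12 other chains. The tissue was the whole soleus of one hind limb, a postural muscle, from C57BL/6J mice. The space group was 10 mice that had hind-limb unloading for 14 days, ionizing radiation and a stress hormone given in the diet. The control group was 10 mice kept under like conditions with a sham irradiation. The 3 exposures were applied together, so they cannot be told apart, and the space group models only their combination. The labels state no age, sex or cage for the mice and nothing more on the origin of the replicates, so a p-value here reflects only how these samples vary.

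Collagens are made as longer procollagen chains, which are hydroxylated, folded together with chaperones, trimmed outside the cell and crosslinked. Fibrillar collagens build the tensile fibres of tendon and of the connective tissue sheaths of muscle. Type IV collagen builds the sheet-like network of the basement membrane around every fibre, capillary and Schwann cell, and type VI collagen forms beaded microfibrils that link that sheet to the fibres. FACIT chains sit on the surface of fibrils. Fibroblasts, tendon cells, Schwann cells, vessel wall cells and muscle fibres each make some of these chains. In whole tissue, fewer cells of a type and less RNA per cell cannot be told apart.

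Total RNA depleted of ribosomal RNA was sequenced to 17336017 to 43424464 counted reads per library, and values are counts per 1000000 reads (CPM) scaled by the trimmed mean of M-values. Of all rows, 16778 passed a filter on low counts and were tested with edgeR's quasi-likelihood test, with Benjamini-Hochberg adjustment over all of them and a threshold of 0.05. A gene past that threshold is called higher or lower in space. The muscle fibre markers summed to 181615 to 257337 CPM in space libraries and 213076 to 265192 CPM in control libraries. Most of each sum was 1 gene, Ttn, which averaged 196223 CPM in space and 191420 CPM in control libraries and was not called. Some libraries stood apart. The 11 Schwann cell markers summed to 542 to 1534 CPM in space replicates 1 to 4, against 111 to 199.8 CPM in space replicates 5 to 10 and 118 to 216 CPM in control libraries. The 9 tendon markers summed to 139 to 243 CPM in space libraries and 239 to 579.6 CPM in control libraries, of which control replicate 6 was the highest. Collagen results are therefore also given without control replicate 6 or with space replicates 5 to 10 alone where these libraries move them.

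Summed over all 44 chains, collagen counts were lower in space. They made up 723, 927 and 1195 CPM in the lowest, median and highest space library, against 1226, 1583 and 2715 CPM in the control libraries. No space library reached the lowest control library. Of the 44 chains, 38 passed the filter; 23 were called lower (60.5% of those tested) and 6 were called higher (15.8%), and 9 were not called. Over all tested genes 57.6% were called, 28.9% lower and 28.7% higher, so the collagens' share of lower calls lay above that of all genes and their share of higher calls below it. The median log2 fold change, space over control, was -0.51 over the tested collagens and 0.02 over all tested genes. Of the 38 tested chains, 11 were called lower and 3 higher without overlap of the per-library ranges of the groups. Of all 16778 tested genes, 1839 (11.0%) were lower and 1088 (6.48%) higher without overlap. A change of at least 2-fold was called for 9 of the 38 chains as lower and 2 as higher. Over all tested genes these were 566 (3.37%) and 641 (3.82%). The shares of higher chains thus lay near those of all genes. Both counts of lower chains include Col2a1, which passed the filter mainly through the control libraries. The 2-fold count also includes Col11a2 and Col22a1. With each library left out in turn, their log2 fold changes were at weakest -0.85 and -0.95, short of 2-fold.

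Without control replicate 6 the counts remained 23 lower and 6 higher, and with space replicates 5 to 10 alone they were 24 lower and 5 higher. Chains that pass a filter through 1 group only had to differ. Col2a1 was such a chain, reaching the filter's cutoff in 4 of 10 space libraries and all 10 control libraries. Col4a6 reached it in 9 space and 5 control libraries, and Col9a2 and Col9a3 reached it in about as many of each group. The 6 chains that did not pass were Col6a4, Col6a5, Col9a1, Col10a1, Col17a1 and Col19a1. Their highest count in any library was 169, for Col6a5, which had 0, 0.328 and 4.59 CPM in the lowest, median and highest space library, against 0.0988, 0.157 and 2.73 CPM in control libraries.

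**Figure D1:**
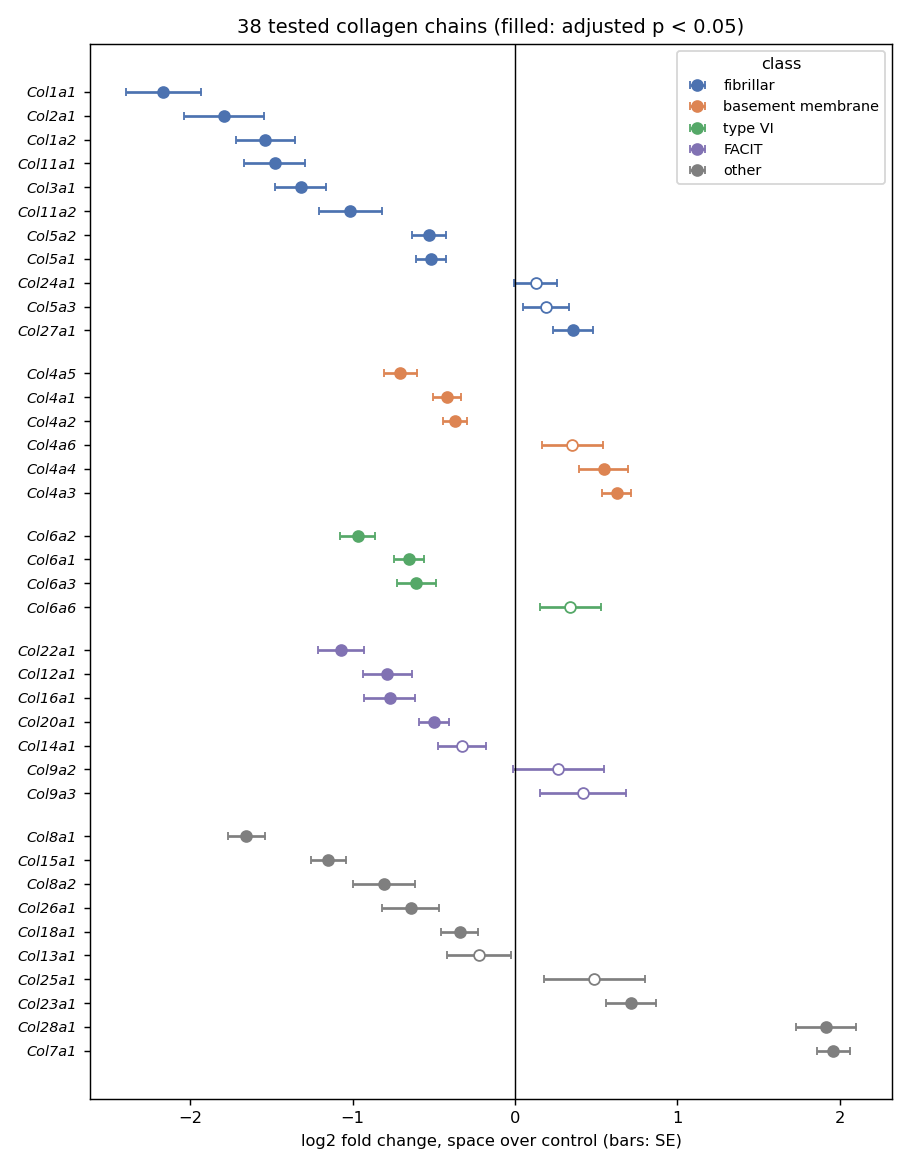
Log2 fold change, space over control, of the 38 tested collagen chains with bars of 1 SE (n = 10 libraries each), coloured by class; filled points passed the adjusted p threshold. Most fibrillar, type VI and FACIT chains lie left of 0, down to -2.17 for Col1a1, and Col7a1 and Col28a1 lie far to the right at 1.96 and 1.91.

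The fibrillar class held the largest fall of any chain, that of Col1a1. All 11 chains were tested, and 8 were called lower, 1 higher and 2 not called. That made 81.8% called, against 57.6% of all tested genes called and 28.9% called lower. The class median log2 fold change was -1.01, and it lay between -1.09 and -0.85 with each library left out. Without Col2a1, which passed the filter through the control libraries, 7 of 10 were called lower and the median was -0.77. Col1a1, the main chain of type I collagen, the most abundant fibre protein of tendon and muscle sheath, had 39.9, 61.8 and 92.8 CPM in the lowest, median and highest space library, against 162, 240.1 and 638 CPM in the control libraries. Its highest space library lay below its lowest control library. It was 4.49-fold lower in space (edgeR adjusted p = 3.46e-07), with a log2 fold change of -2.17 and an SE of 0.23, an error that follows the ± sign hereafter. The value 638 CPM belonged to control replicate 6, the next control library had 371 CPM, and without that replicate the log2 fold change was -1.95.

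Col1a2, the partner of Col1a1 in type I collagen, had 58.4, 80.5 and 123 CPM in space libraries, given here and below as lowest, median and highest, against 155, 208 and 494 CPM in control libraries. It fell 2.90-fold (log2 fold change -1.54 ± 0.18, adjusted p = 1.31e-06). Col3a1 forms type III collagen, the finer fibrils of the endomysium around single fibres. It had 50.2, 71.4 and 110.3 CPM in space libraries, against 122, 175 and 280.2 CPM in control libraries, a fall of 2.49-fold (log2 fold change -1.32 ± 0.16, adjusted p = 4.85e-07). For both chains every space library was below every control library.

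Type XI and type II chains, best known from cartilage, moved in the same direction. Col11a1 had 2.94, 4.80 and 6.18 CPM in space libraries, against 8.11, 12.2 and 25.9 CPM in control libraries (log2 fold change -1.48 ± 0.19, adjusted p = 1.09e-06). Col11a2 had 2.61, 5.67 and 8.17 CPM in space libraries, against 8.69, 9.99 and 22.4 CPM in control libraries (log2 fold change -1.01 ± 0.19, adjusted p = 0.000106). Neither chain's groups overlapped, and control replicate 6 was the highest library for both. With each library left out in turn, the log2 fold change was at weakest -1.32 for Col11a1 and -0.85 for Col11a2. Col2a1, the chain of type II collagen, was close to the detection limit in space, with 0.126, 0.291 and 0.551 CPM, against 0.750, 0.975 and 3.14 CPM in control libraries (log2 fold change -1.79, adjusted p = 5.38e-06). Its groups did not overlap either, but its value rests on the control libraries that carried it through the filter.

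The type V chains, which start and limit the growth of type I fibrils, were split. Col5a1 averaged 37.2 ± 5.18 CPM in space and 53.3 ± 8.22 CPM in control libraries (SD, n = 10 each), a log2 fold change of -0.52. Col5a2 averaged 26.6 ± 4.52 CPM in space and 38.4 ± 6.07 CPM in control libraries, a log2 fold change of -0.53; both were called lower. Col5a3 was not called, with 31.5, 42.0 and 68.5 CPM in space libraries and 25.2, 39.1 and 48.8 CPM in control libraries (log2 fold change 0.19 ± 0.14, adjusted p = 0.239). Of the minor fibrillar chains, Col24a1 was not called (log2 fold change 0.13, adjusted p = 0.390). Col27a1 was called higher, at 2.77, 4.02 and 5.14 CPM in space libraries, against 2.37, 2.84 and 4.19 CPM in control libraries (log2 fold change 0.36, adjusted p = 0.0141). That call did not hold with space replicates 5 to 10 alone, where the log2 fold change was 0.19 (adjusted p = 0.228).

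Markers of tendon cells moved with the fibrillar chains. All 9 were called lower, against 28.9% of all tested genes, with a median log2 fold change of -1.07. Scx, a transcription factor of tendon progenitors, had 1.34, 2.37 and 4.01 CPM in space libraries, against 4.74, 6.98 and 10.1 CPM in control libraries. Kera, a proteoglycan of tendon and cornea, had 0.456, 0.646 and 1.11 CPM in space libraries, against 1.63, 3.68 and 9.69 CPM in control libraries. The part of the tendon markers in the fall of the fibrillar chains was not tested. The 12 general fibroblast markers did not move together: 4 were called higher, among them Mme, a cell-surface peptidase, at 8.88, 11.1 and 19.6 CPM in space libraries, against 5.53, 6.63 and 9.71 CPM in control libraries. Another 4 were called lower, among them Lum, a fibril-binding proteoglycan, at 9.66, 10.8 and 16.3 CPM in space libraries, against 15.7, 18.8 and 26.2 CPM in control libraries. In all 66.7% of the fibroblast list was called, against 57.6% of all tested genes. The list summed to 439 to 667 CPM in space libraries and 416 to 564 CPM in control libraries, ranges that overlap.

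**Figure D2:**
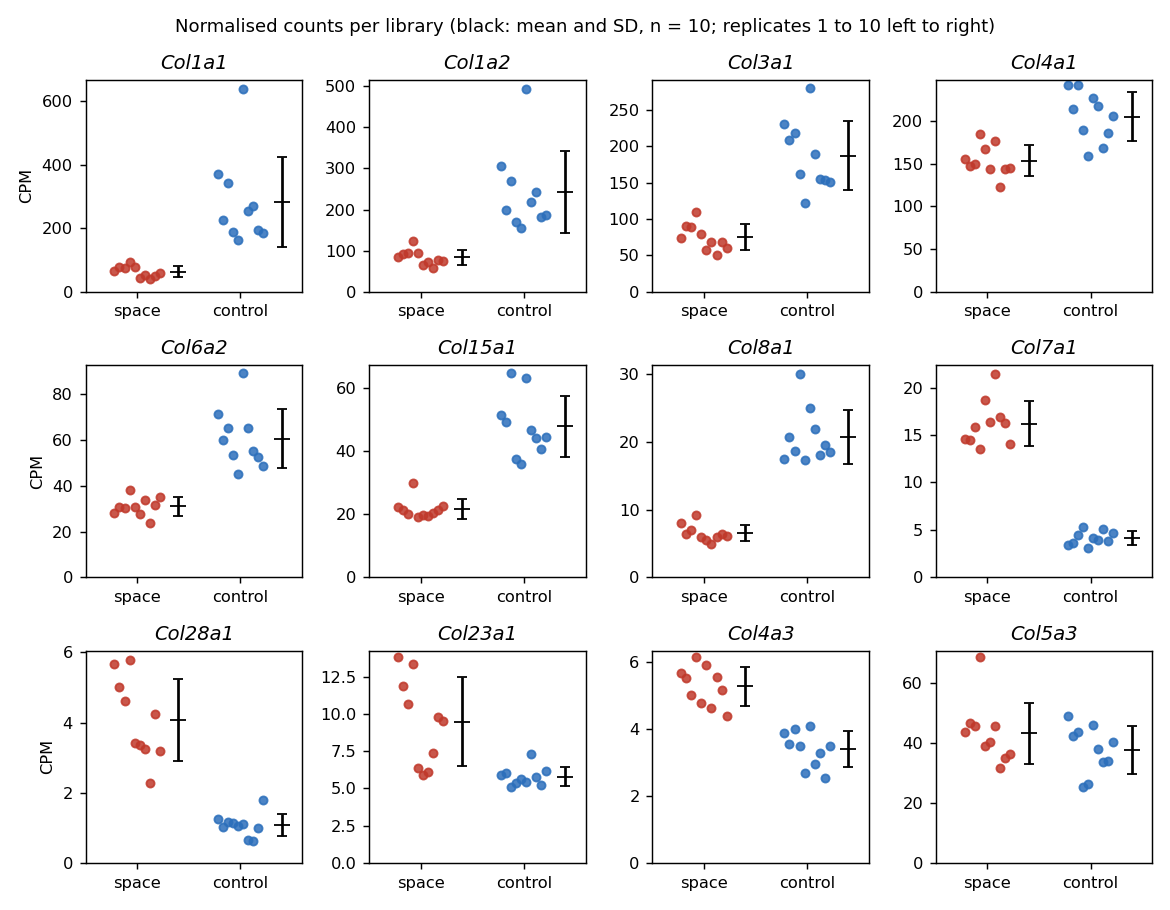
CPM of 12 collagen chains in each library, space left and control right in every panel, with the mean and SD of 10 libraries in black. Col1a1, Col1a2, Col3a1, Col6a2, Col15a1 and Col8a1 separate completely downward and Col7a1, Col28a1 and Col4a3 upward, while Col5a3 overlaps throughout; control replicate 6 is the top point for Col1a1 at 638 CPM.

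The basement membrane chains did not move in a common direction. Of 6 chains, 3 were called lower and 2 higher and 1 was not called, and the median log2 fold change was -0.01. That made 83.3% called, against 57.6% of all tested genes called, 28.9% lower and 28.7% higher. With a mean of 1 CPM required, which leaves out Col4a6, the median of the class was -0.35. Col4a1 and Col4a2, which build the network found in nearly all basement membranes, were lower. Col4a1 had 122, 149 and 185 CPM in space libraries, against 159, 209.8 and 242 CPM in control libraries, 1.33-fold lower (log2 fold change -0.42 ± 0.09, adjusted p = 9.15e-05). Col4a2 had 94.1, 122 and 137 CPM in space libraries, against 127, 152 and 185 CPM in control libraries, 1.29-fold lower (log2 fold change -0.37 ± 0.07, adjusted p = 6.61e-05). The ranges of the groups overlapped for both, although all 10 space libraries were below the control mean of each.

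Col4a3, Col4a4 and Col4a5 assemble together in the network of the kidney filter, where their loss causes Alport syndrome in people. Col4a3 was higher, at 4.38, 5.34 and 6.15 CPM in space libraries, against 2.53, 3.50 and 4.10 CPM in control libraries, and its groups did not overlap (log2 fold change 0.63 ± 0.09, adjusted p = 2.35e-06). Col4a4 was higher at 3.58, 6.04 and 8.36 CPM in space libraries, against 2.62, 4.36 and 5.00 CPM in control libraries (log2 fold change 0.55, adjusted p = 0.00161). Col4a5 was lower without overlap, at 3.65, 5.31 and 7.02 CPM in space libraries, against 7.47, 8.43 and 9.77 CPM in control libraries (log2 fold change -0.71 ± 0.10, adjusted p = 1.03e-06). Col4a6, at a median of 0.419 CPM in space and 0.325 CPM in control libraries, was not called (log2 fold change 0.35, adjusted p = 0.178). In the annotation used, the exons of Col4a3 share 563 bases with a transcript on the other strand, C430014B12Rik, and no label states whether counting used strand, so reads of those bases cannot be told apart.

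The type IV genes lie in head-to-head pairs, each pair reading outward from a common start region. In GENCODE M21 on build GRCm38, Col4a1 and Col4a2 overlap by 22 bases on chromosome 8, Col4a3 and Col4a4 are 71 bases apart on chromosome 1, and Col4a5 and Col4a6 are 1308 bases apart on the X chromosome. Col4a1 and Col4a2 fell together and Col4a3 and Col4a4 rose together, while Col4a5 was called lower and Col4a6 was not called. The start windows of Col4a1 and Col4a2 are shown because they overlap and both genes were lower in space. They are RefSeq windows of 300 bases on GRCm38.p6, from 250 bases before to 50 after each start, and capitals mark the 78 bases that the windows share, chr8:11312777-11312854, read on opposite strands.
Col4a1, minus strand, chr8:11312777-11313076: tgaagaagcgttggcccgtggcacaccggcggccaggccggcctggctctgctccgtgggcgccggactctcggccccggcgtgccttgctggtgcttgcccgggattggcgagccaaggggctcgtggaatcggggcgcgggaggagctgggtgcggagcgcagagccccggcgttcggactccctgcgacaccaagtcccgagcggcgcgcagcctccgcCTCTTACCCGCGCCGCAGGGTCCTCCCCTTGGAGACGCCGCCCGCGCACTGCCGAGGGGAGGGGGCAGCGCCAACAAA
Col4a2, plus strand, chr8:11312555-11312854: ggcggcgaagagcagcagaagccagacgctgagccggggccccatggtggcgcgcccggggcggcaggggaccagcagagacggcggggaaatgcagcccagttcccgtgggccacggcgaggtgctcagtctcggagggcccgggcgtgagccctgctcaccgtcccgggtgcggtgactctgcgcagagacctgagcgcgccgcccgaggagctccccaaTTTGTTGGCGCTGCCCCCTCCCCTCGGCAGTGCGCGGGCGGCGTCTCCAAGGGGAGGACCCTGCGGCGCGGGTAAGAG
For comparison, the windows of a chain that fell, Col1a2, and of the chain with the smallest p among those that rose, Col7a1, are shown with the motif CCAAT or its reverse complement ATTGG in capitals.
Col1a2, plus strand, chr6:4505368-4505667: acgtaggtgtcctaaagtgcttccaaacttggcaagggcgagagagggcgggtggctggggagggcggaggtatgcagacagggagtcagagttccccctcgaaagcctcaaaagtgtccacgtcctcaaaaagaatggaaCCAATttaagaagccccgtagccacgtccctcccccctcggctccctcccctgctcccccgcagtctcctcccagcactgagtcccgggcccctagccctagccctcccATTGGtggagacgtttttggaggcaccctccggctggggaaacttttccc
Col7a1, plus strand, chr9:108953336-108953635: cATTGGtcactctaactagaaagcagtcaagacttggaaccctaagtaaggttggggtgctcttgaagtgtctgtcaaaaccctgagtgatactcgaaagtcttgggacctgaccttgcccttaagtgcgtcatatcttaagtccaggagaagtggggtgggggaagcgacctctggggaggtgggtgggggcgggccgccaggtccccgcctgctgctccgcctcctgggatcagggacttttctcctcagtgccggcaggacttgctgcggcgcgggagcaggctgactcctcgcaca
The Col1a2 window held the motif 2 times and the Col7a1 window held it 1 time, and each Col4 window above held it 1 time. Searched on both strands, CCAAT was in 34.2% of the 38 windows that matched 35 of the 44 chains, against 37.4% of all 32851 windows. GGGCGG, searched on both strands, was in 60.5% of the collagen windows, against 35.7% of all windows. TATAA, also on both strands, was in 18.4% of the collagen windows, against 24.9% of all windows. Of 17 chains called lower that had a window, 7 held CCAAT, and of 5 called higher, 1 did. A match of letters is a description and not a binding site.

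Type VI collagen, whose loss causes muscular dystrophy in people, fell in its 3 classic chains. Col6a1 had 32.8, 37.4 and 48.1 CPM in space libraries, against 47.0, 58.5 and 87.7 CPM in control libraries (log2 fold change -0.65 ± 0.09, adjusted p = 2.77e-06). Col6a2 had 23.8, 30.6 and 38.0 CPM in space libraries, against 45.3, 57.6 and 89.4 CPM in control libraries (log2 fold change -0.97 ± 0.11, adjusted p = 1.21e-07). Col6a3, the long chain, had 32.7, 52.9 and 65.3 CPM in space libraries, against 58.1, 75.8 and 106 CPM in control libraries (log2 fold change -0.61 ± 0.12, adjusted p = 0.000107). The Col6a2 groups did not overlap, and those of Col6a1 and Col6a3 overlapped at their edges. Col6a6, a chain that can take the place of Col6a3, was not called at 3.22, 5.12 and 6.26 CPM in space libraries and 1.83, 3.75 and 6.67 CPM in control libraries (log2 fold change 0.34 ± 0.19, adjusted p = 0.0866). Leaving out control replicate 1, control replicate 2 or space replicate 1 brought it past the threshold as higher, with log2 fold changes of 0.40, 0.45 and 0.40. Col6a4 and Col6a5 did not pass the filter.

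Among the FACIT chains 4 of 7 tested were called lower, none higher and 3 were not called, with a median log2 fold change of -0.50. In all 57.1% were called, near the 57.6% of all tested genes, of which 28.9% were called lower. The 4 called lower were Col12a1, Col16a1, Col20a1 and Col22a1. Col22a1, which is made at the junction of muscle with tendon, had 13.9, 17.7 and 24.5 CPM in space libraries, against 24.6, 36.8 and 67.3 CPM in control libraries. It was 2.10-fold lower, with no overlap of the groups (log2 fold change -1.07 ± 0.14, adjusted p = 2.37e-06). Col12a1, a chain on the fibrils of tendon and muscle sheath, had 28.3, 32.7 and 54.0 CPM in space libraries, against 47.5, 54.9 and 116 CPM in control libraries (log2 fold change -0.79 ± 0.15, adjusted p = 0.000271). Control replicate 6 was the highest control library for both chains, and without it the log2 fold changes were -0.95 for Col22a1 and -0.64 for Col12a1.

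Col16a1 had 3.15, 4.40 and 7.13 CPM in space libraries, against 5.88, 7.68 and 12.6 CPM in control libraries (log2 fold change -0.77, adjusted p = 0.000154). Col20a1 had 5.39, 6.39 and 8.60 CPM in space libraries, against 6.93, 9.44 and 11.0 CPM in control libraries (log2 fold change -0.50, adjusted p = 4.33e-05). The groups overlapped for both, with all 10 space libraries below the control mean. Col14a1, a fibril surface chain of tendon and muscle sheath, was not called at a median of 11.0 CPM in space and 14.6 CPM in control libraries (log2 fold change -0.32 ± 0.15, adjusted p = 0.0677). It passed as lower without space replicate 1, at a log2 fold change of -0.45, without space replicate 4, at -0.38, and with space replicates 5 to 10 alone, at -0.55. Col9a2 and Col9a3, cartilage chains, stayed below 1 CPM in every library and were not called.

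The remaining chains gave both the strongest rises and some of the strongest falls, with 5 called lower, 3 higher and 2 not called of 10 tested. That made 80% called, against 57.6% of all tested genes called, 28.9% lower and 28.7% higher. The share of higher calls in this class thus lay near that of all genes. Col8a1, a short chain of networks in vessel walls and under the corneal endothelium, had 4.97, 6.24 and 9.16 CPM in space libraries, against 17.3, 19.1 and 30.0 CPM in control libraries. It was 3.15-fold lower without overlap (log2 fold change -1.65 ± 0.11, adjusted p = 2.9e-11). Col15a1, a proteoglycan collagen of the outer face of basement membranes whose loss weakens muscle in mice, had 19.0, 20.8 and 30.0 CPM in space libraries, against 36.0, 45.6 and 64.9 CPM in control libraries. It was 2.22-fold lower, again without overlap (log2 fold change -1.15 ± 0.11, adjusted p = 8.62e-09).

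Col8a2, the usual partner of Col8a1, was also called lower (log2 fold change -0.81, adjusted p = 0.00105), and so was Col26a1 (log2 fold change -0.64, adjusted p = 0.00228). Col18a1, the relative of Col15a1 that releases endostatin, was also lower, at 9.12, 11.2 and 17.8 CPM in space libraries, against 11.4, 15.0 and 20.0 CPM in control libraries (log2 fold change -0.34, adjusted p = 0.0125). With library size alone as the scaling, Col18a1 no longer passed (adjusted p = 0.0983), while with space replicates 5 to 10 alone its log2 fold change was -0.51 (adjusted p = 0.000110). Of 10 endothelial markers 4 were called lower and none higher, so that 40% were called, against 57.6% of all tested genes called and 28.9% called lower. The endothelial markers summed to 543 to 636 CPM in space libraries and 619.9 to 757 CPM in control libraries. Kdr, a receptor for vascular growth factor, fell furthest of the 10. It had 38.6, 48.8 and 81.4 CPM in space libraries, against 79.3, 88.1 and 132 CPM in control libraries. The 6 markers not called had log2 fold changes from -0.20, for Egfl7, to 0.08, for Pecam1. The part of the endothelial markers in the fall of Col8a1, Col15a1 and the type IV chains was not tested.

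Col7a1 rose furthest. It encodes the anchoring fibrils that fix the epidermis of skin to the dermis. It had 13.5, 16.0 and 21.4 CPM in space libraries, against 3.09, 4.06 and 5.33 CPM in control libraries, so that its lowest space library was above its highest control library. It was 3.89-fold higher (log2 fold change 1.96 ± 0.10, adjusted p = 4.56e-14). Space replicates 1 to 4 had 13.5 to 15.8 CPM and space replicates 5 to 10 had 14.1 to 21.4 CPM, so Col7a1 was no higher in the libraries with high Schwann markers, and with space replicates 5 to 10 alone the log2 fold change was 2.06.

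Col28a1, a collagen with von Willebrand factor domains known from the surface of peripheral glia, had 2.27, 3.84 and 5.79 CPM in space libraries, against 0.624, 1.08 and 1.79 CPM in control libraries. It was 3.77-fold higher without overlap (log2 fold change 1.91 ± 0.19, adjusted p = 2.54e-09). Within the space group it was higher in the libraries with high Schwann markers: replicates 1 to 4 had 4.61 to 5.79 CPM and replicates 5 to 10 had 2.27 to 4.25 CPM. With replicates 5 to 10 alone its log2 fold change was 1.61 (adjusted p = 9.62e-08), all of these libraries lying above the highest control library.

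Col23a1, a collagen that spans the cell membrane, had 5.90, 9.69 and 13.8 CPM in space libraries, against 5.07, 5.70 and 7.28 CPM in control libraries (log2 fold change 0.71 ± 0.15, adjusted p = 0.000266). Space replicates 1 to 4 had 10.7 to 13.8 CPM and replicates 5 to 10 had 5.90 to 9.83 CPM, and with replicates 5 to 10 alone the log2 fold change was 0.38 (adjusted p = 0.00681). Of the 11 Schwann markers, 10 (90.9%) were called higher over all space libraries, against 28.7% of all tested genes. With space replicates 5 to 10 alone 4 were called higher and 2 lower. Of 4 perineurial markers tested 3 (75%) were called higher. Among space replicates 5 to 10, replicate 9 had the most Col28a1 and Col23a1, at 4.25 and 9.83 CPM. Its Schwann marker sum was 115 CPM. Replicate 7 had the highest Schwann marker sum of these, 199.8 CPM, with 3.26 CPM of Col28a1 and 6.12 CPM of Col23a1. Adipocyte markers summed to 158 to 389 CPM in space replicates 1 to 4 and 27.4 to 168 CPM in replicates 5 to 10. The part of nerve-derived RNA in the rises of Col28a1 and Col23a1 was not tested beyond these values. The other membrane-spanning chains tested, Col13a1 and Col25a1, which are known from the neuromuscular junction, were not called (adjusted p = 0.317 and 0.185).

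**Figure D3:**
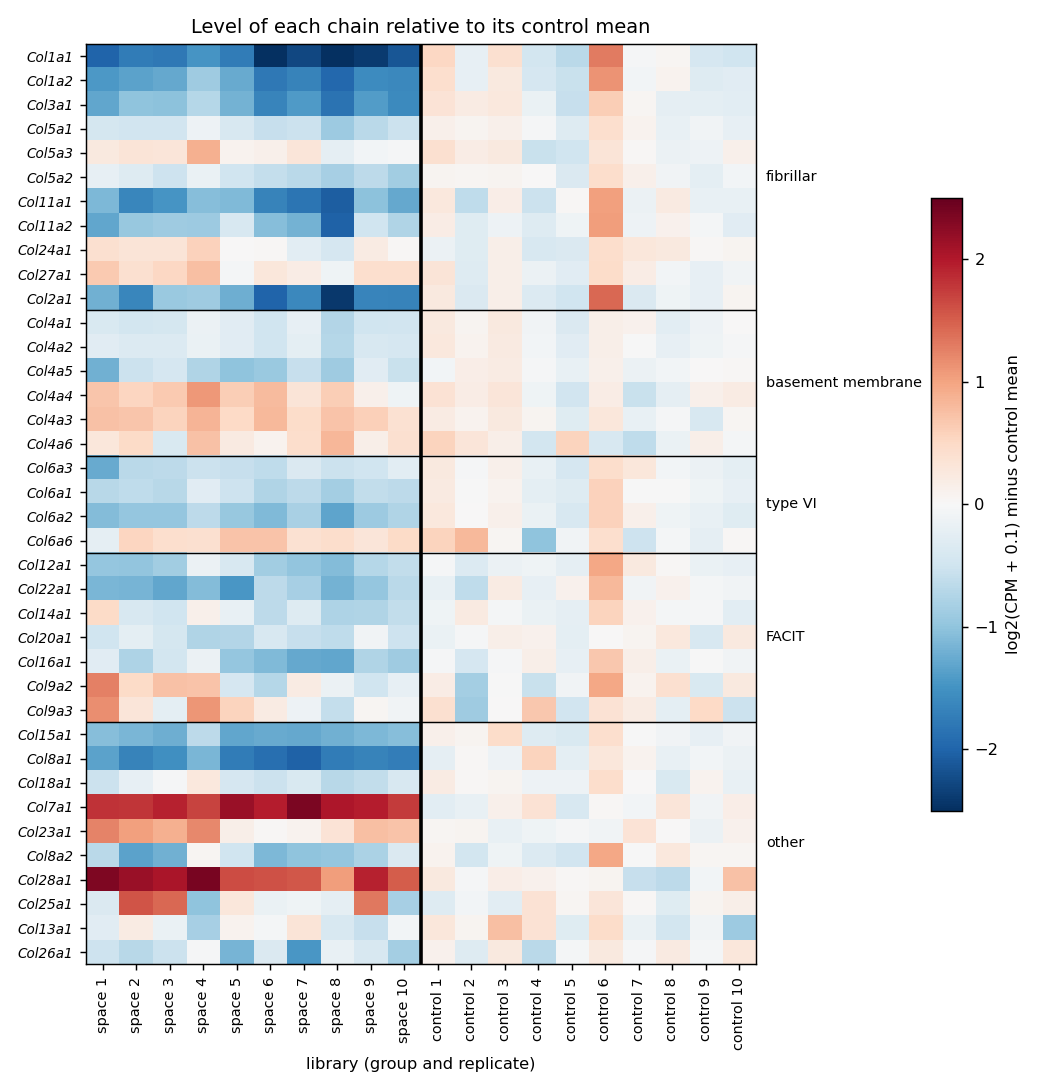
Each of the 38 tested chains, grouped by class, in each of 20 libraries, space left and control right: colour gives log2(CPM + 0.1) minus the chain's control mean, with red above and blue below it. Control replicate 6 is red for Col1a1, Col2a1, Col11a1 and Col12a1, space replicates 1 to 4 are darkest for Col28a1 and Col23a1, and Col7a1 is red in every space library.

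The order of the chains by level changed at the top. Levels were compared between genes per kilobase of exon, as mean CPM per kilobase. In control libraries Col1a1 came first at 43.1, before Col4a1 at 27.5 and Col4a2 at 23.5. In space libraries Col4a1 came first at 20.6 followed by Col4a2 at 18.2, and Col1a1 after them at 9.61. Of all collagen counts scaled by length, Col1a1 made up 8.16% in space and 20.3% in control libraries, Col4a1 17.5% in space and 12.9% in control libraries. Col7a1 ranked 18 of 44 in space and 28 of 44 in control libraries, at 1.34% of the scaled counts in space and 0.191% in control libraries.

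Ratios of 2 chains within a library do not depend on how libraries are scaled against one another. The 10 ratios each set 2 chains of the same class against each other, and were chosen with earlier results of these data known. For each, the mean log2 ratio of counts was compared by a 2-sided permutation test with 100000 resamples, adjusted over the 10. The smallest p these resamples can give is 1e-05. Col1a1 lost ground to its partner Col1a2: the log2 ratio was -0.65, -0.39 and -0.24 in the lowest, median and highest space library, against -0.02, 0.17 and 0.37 in control libraries. On the linear scale, the geometric mean was 0.745 counts of Col1a1 per count of Col1a2 in space and 1.14 in control libraries. The difference, space minus control, was -0.61 ± 0.06 SE (permutation test, adjusted p = 3.33e-05), and no space library reached a control library.

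Col3a1 gained on Col1a1, with log2 ratios of 0.03, 0.25 and 0.48 in space and -1.19, -0.42 and -0.11 in control libraries, a difference of 0.78 ± 0.11 (permutation test, adjusted p = 3.33e-05). Col5a3 gained on Col5a1 by 0.71 ± 0.09 (permutation test, adjusted p = 3.33e-05). The groups did not overlap for either ratio. Col5a1 to Col5a2 did not pass, at 0.01 ± 0.06 (permutation test, adjusted p = 0.807).

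Among the microfibril chains, Col6a1 gained on Col6a2, with log2 ratios of 0.09, 0.33 and 0.46 in space and -0.16, -0.03 and 0.09 in control libraries, a difference of 0.32 ± 0.05 (permutation test, adjusted p = 5e-05). Col6a6 gained on Col6a3, with log2 ratios of -3.63, -3.35 and -3.01 in space and -5.22, -4.37 and -3.52 in control libraries, a difference of 1.03 ± 0.18 (permutation test, adjusted p = 8e-05). Both pairs of groups overlapped only at their edges. Col6a3 to Col6a1 did not pass over all libraries (0.03 ± 0.10, permutation test, adjusted p = 0.807). It did with space replicates 5 to 10 alone (0.19, permutation test, adjusted p = 0.0254).

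Neither of the 2 head-to-head pairs tested passed for a change of ratio, and the Col4a5 to Col4a6 ratio was not tested. Col4a1 to Col4a2 differed by -0.04 ± 0.03 (permutation test, adjusted p = 0.133) and Col4a3 to Col4a4 by 0.10 ± 0.11 (permutation test, adjusted p = 0.48). Col4a5 to Col4a1 differed by -0.31 ± 0.12 (permutation test, adjusted p = 0.0357). That ratio missed the threshold without any one of space replicates 1, 4, 5, 6 and 7 or control replicates 2, 4, 5, 8 and 9, and with space replicates 5 to 10 alone.

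**Figure D4:**
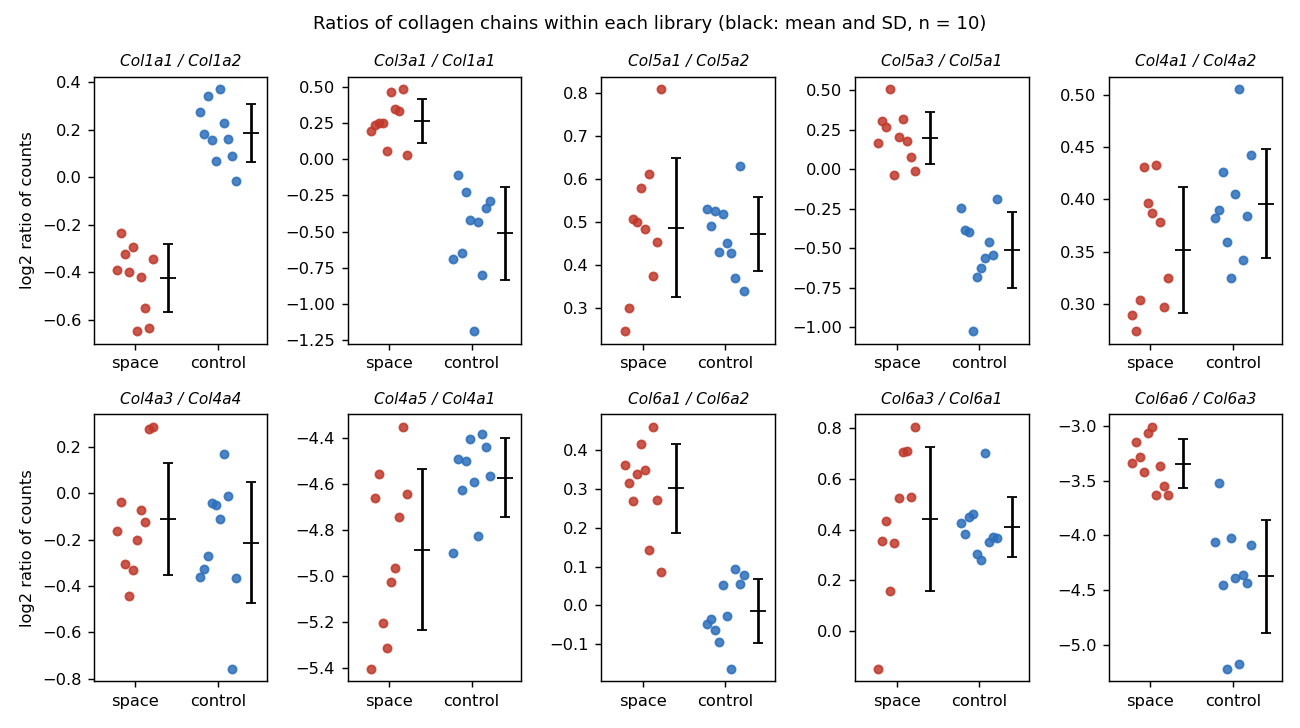
Log2 ratio of the counts of 2 chains within each library for 10 pairs, space left and control right, with the mean and SD of 10 libraries in black; the vertical axes differ between panels. Col1a1 / Col1a2, Col3a1 / Col1a1 and Col5a3 / Col5a1 separate the groups completely, while Col4a1 / Col4a2 and Col4a3 / Col4a4 overlap.

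Within each group, chains of most but not all pairs looked at varied together from library to library. In all 10 relations were computed, and the pairs were chosen after the data were seen. Other gene pairs were not computed, so no general level of correlation is given. Space values include differences between replicates 1 to 4 and 5 to 10, such as 64.6 to 92.8 and 39.9 to 77.2 CPM of Col1a1. Across 10 libraries Col1a1 and Col1a2 had Pearson's r = 0.96 in space and 0.99 in control (Spearman's rho 0.95 and 0.96, adjusted permutation p for r = 4e-05 in both). Without the 2 libraries farthest from the median of Col1a1, r was 0.95 in space and 0.98 in control libraries. Col4a1 and Col4a2 had r = 0.94 in space and 0.97 in control (rho 0.95 and 0.98, adjusted permutation p for r = 4e-05 in both), and 0.85 and 0.95 without their 2 farthest libraries. Col1a1 and Col3a1 had r = 0.93 in space and 0.89 in control (rho 0.92 and 0.89, adjusted permutation p for r = 0.000333 and 0.000514), and 0.87 and 0.77 without their 2 farthest libraries. Col4a3 and Col4a4 had r = 0.80 in space and 0.62 in control (rho 0.83 and 0.67, adjusted permutation p for r = 0.00592 and 0.0556), so the control value did not pass. Without the 2 farthest libraries these values were 0.61 and 0.88. Col6a1 and Col6a2 had r = 0.80 in space and 0.96 in control (rho 0.79 and 0.92, adjusted permutation p for r = 0.00828 and 4e-05). The space value dropped to 0.39 without the 2 farthest libraries, so it rests on them, and the control value was 0.89.

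Genes that modify and fold collagen chains were mostly lower in space: 16 of 20 tested were called lower, 2 higher and 2 not called, with a median log2 fold change of -0.37. In all 90% were called, against 57.6% of all tested genes called and 28.9% called lower. The largest change was in P3h2, a prolyl 3-hydroxylase that acts on type IV collagen, at 5.56, 7.34 and 9.17 CPM in space libraries, against 30.1, 39.9 and 45.4 CPM in control libraries (5.39-fold lower, log2 fold change -2.43, adjusted p = 3.37e-15). Its groups lay far apart. Both subunits of the prolyl 4-hydroxylase that stabilises the helix were lower: P4ha1 at 14.9, 16.6 and 18.9 CPM in space libraries, against 21.7, 23.9 and 29.4 CPM in control libraries, and P4hb at 99.5, 105 and 117 CPM in space libraries, against 130.1, 137 and 147 CPM in control libraries. Plod3, a lysyl hydroxylase that also adds sugars, was 1.55-fold lower (adjusted p = 8.82e-11). None of these 4 genes had overlapping groups. Serpinh1, the collagen chaperone, singled out after its values were seen, had 21.8, 24.2 and 29.1 CPM in space libraries, against 36.8, 43.2 and 61.3 CPM in control libraries (log2 fold change -0.85, adjusted p = 2.21e-08).

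Of 14 genes that trim procollagen or crosslink fibres, 9 were called lower and 2 higher, with a median log2 fold change of -0.56. In all 78.6% were called, against 57.6% of all tested genes called and 28.9% called lower. Loxl1, Loxl2 and Loxl3, lysyl oxidase relatives that crosslink collagen and elastin, were lower without overlap, with log2 fold changes of -0.75, -0.91 and -0.58 (adjusted p = 2.42e-09, 8.7e-09 and 1.32e-05). Adamts14, which removes the amino-terminal propeptide, had 1.33, 1.69 and 2.23 CPM in space libraries, against 2.47, 3.06 and 3.78 CPM in control libraries (log2 fold change -0.85, adjusted p = 3.96e-07). Lox itself, looked at after its values were known, was not called (adjusted p = 0.602).

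Collagen breakdown and its inhibitors showed no common direction, with 4 of 12 tested genes called higher and 3 lower. In all 58.3% were called, near the 57.6% of all tested genes. Mmp8, the neutrophil collagenase, had 0.527, 0.681 and 1.43 CPM in space libraries, against 0, 0.0149 and 0.199 CPM in control libraries (adjusted p = 7.88e-09); control levels were so near 0 that a fold is not given. Mmp8 passed the filter through the space group alone, reaching its value in 10 space libraries and 0 control libraries, so the gene had to differ and its call supports nothing. Mmp14, a membrane-bound protease that cuts fibrillar collagen, had 16.0, 18.6 and 24.0 CPM in space libraries, against 10.1, 12.2 and 14.1 CPM in control libraries (log2 fold change 0.68, adjusted p = 9.35e-09). Timp1, an inhibitor of these proteases, had 0.0420, 0.184 and 0.339 CPM in space libraries, against 0.406, 0.930 and 1.46 CPM in control libraries (log2 fold change -2.52, adjusted p = 5.75e-08). Timp1 reached the filter value in 1 space library and 10 control libraries, so its call is read the same way. The groups of Mmp14 did not overlap. Timp3, an inhibitor bound to the matrix, was higher, at a log2 fold change of 0.38 (adjusted p = 0.000118).

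Of the receptors and uptake genes, 4 of 11 tested were called lower and 1 higher, 45.5% against the 57.6% of all tested genes. Itgb1, the subunit that the collagen-binding integrins share, had 168, 174 and 211 CPM in space libraries, against 227, 246 and 268 CPM in control libraries, without overlap (log2 fold change -0.45, adjusted p = 3.62e-09). Itga2, which pairs with it, and Mrc2, an uptake receptor for collagen fragments, were lower, with log2 fold changes of -0.66 and -0.45. Adgrg6, a type IV collagen receptor of Schwann cells, was higher (0.57, adjusted p = 0.00599). Of 8 TGF-beta and CCN ligands, which include inducers of collagen transcription in fibroblasts, 4 were called lower and none higher, 50% against 57.6% of all tested genes called and 28.9% called lower. Ccn2 had 15.4, 23.2 and 25.9 CPM in space libraries, against 25.8, 44.4 and 84.4 CPM in control libraries (log2 fold change -1.18, adjusted p = 0.000100). Tgfb3 had 39.9, 42.5 and 55.7 CPM in space libraries, against 60.6, 66.6 and 70.8 CPM in control libraries, without overlap (log2 fold change -0.56, adjusted p = 1e-08), and Tgfb1 and Ccn4 were lower, with log2 fold changes of -0.46 and -1.19.

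**Figure D5:**
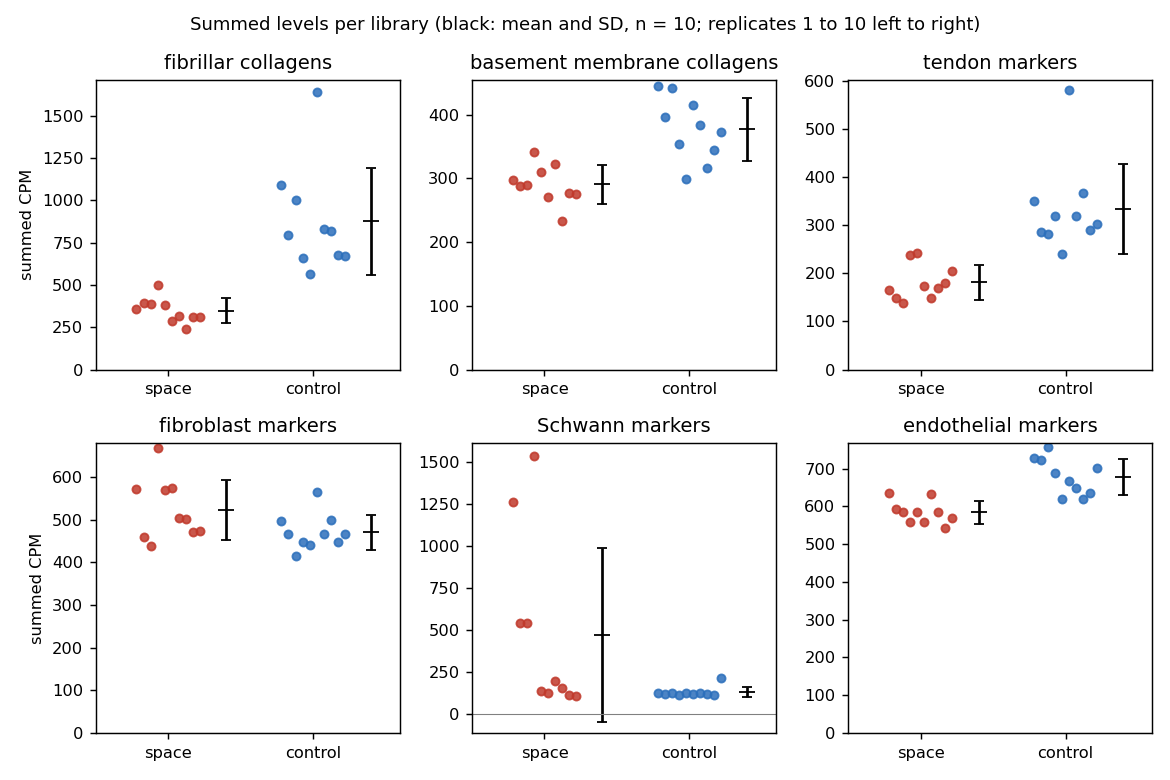
Summed CPM of fibrillar and basement membrane chains and of 4 marker lists in each library, space left and control right, with the mean and SD of 10 libraries in black. Fibrillar chains lie at 242 to 502 CPM in space and 567 to 1644 CPM in control libraries, tendon markers follow with control replicate 6 on top, and the Schwann markers stand out in space replicates 1 to 4, where the SD bar reaches below 0.

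Markers of the other cell types that a soleus sample can hold gave mixed calls. Of 8 mural cell markers 2 were called higher and 2 lower, 50% against 57.6% of all tested genes. The higher ones were Pdgfrb and Abcc9, with log2 fold changes of 0.25 and 0.15. The lower ones were Rgs5, at -0.12, and Cspg4. Cspg4 had 19.5, 27.2 and 34.4 CPM in space libraries, against 36.9, 41.4 and 47.4 CPM in control libraries. The mural markers summed to 1075 to 1238 CPM in space and 1135 to 1242 CPM in control libraries. Macrophage markers summed to 40.3 to 78.3 CPM in space and 34.5 to 65.0 CPM in control libraries with 1 of 7 (14.3%) called higher. Adipocyte markers summed to 27.4 to 389 CPM in space and 26.2 to 186 CPM in control libraries with 1 of 6 (16.7%) called higher. Satellite cell markers had 3 of 6 called higher and 1 lower, 66.7% against 57.6% of all tested genes. Endplate markers had 5 of 9 tested called higher and 2 lower, 77.8% against 57.6% of all tested genes. Among the lower was Colq, the collagen-like tail of acetylcholinesterase, which the naming rule does not take as a chain. Colq had 5.79, 10.1 and 17.6 CPM in space libraries, against 20.7, 25.2 and 31.0 CPM in control libraries (log2 fold change -1.23, adjusted p = 5.76e-06). Among the higher endplate markers, Lrp4 had 71.9, 85.5 and 95.9 CPM in space libraries, against 34.7, 40.7 and 53.8 CPM in control libraries. Of 10 muscle fibre markers 7 were called lower and 1 higher, 80% against 57.6% of all tested genes. Among the lower, Myh2, the fast oxidative myosin, had 162, 243 and 1035 CPM in space libraries, against 8650.2, 9983 and 11368 CPM in control libraries. Ckm was the marker called higher, at 2.21-fold. Ttn and Des were not called, and Myh2 and Myh7 were the only myosin heavy chains in the list. The part of these cell types in the collagen results was not tested.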

How the data were processed

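The authors deposited 1 table of raw counts, not normalized, with a row for each Ensembl gene. The submitters' processing notes name the build GRCm39 and the tools featureCounts 1.5.1, Subread, MultiQC 1.15 and edgeR without their roles. Whether counting used strand, which annotation release it used and how reads matching several genes were treated was not given in the sources used here. Per the labels' protocols, libraries were made from 90 ng of total RNA after homogenisation in TriZol and removal of ribosomal RNA, and read as pairs on a NovaSeq X Plus. Gene symbols, gene classes and exon lengths came from GENCODE M21 on the older build GRCm38, which named 52000 of 56941 rows holding 97.6% of counts. A single row without a symbol took up to 1.82% of counts and stayed in the library sizes.

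The tests ran in edgeR 4.0.16 under R 4.3.3, on all 20 libraries, after filterByExpr by group with a minimum count of 10 and a minimum total of 15. TMM scaling, robust quasi-likelihood fits and Benjamini-Hochberg adjustment at 0.05 were used. Each SE was computed from the libraries' log2 CPM (prior count 2) as the error of the difference between group means. Ratios used counts plus 0.5 and permutation tests written with numpy 2.4.6. The scripts were tested on simulated data first. No intervals or floors are printed.

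The members, lists, ratios and tests were chosen with earlier results of these data known. Values are given in full for the type I, III, VI and main type IV chains, for up to 4 chains of each class with the smallest p and a mean of at least 1 CPM, for called chains with at least a 2-fold change, and of other lists for up to 4 members by smallest p; a few further genes are named with their values where they complete a class or a count. No library columns were identical. Same-numbered samples were not treated as pairs. Alternatives were DESeq2 1.42.0 size factors and test, upper-quartile factors, library size alone, limma-voom (limma 3.58.1) with quality weights, no filter, a mean of 1 CPM, the replicate number as a block, each library left out, a pseudocount of 5 for ratios and, chosen after seeing the data, space replicates 5 to 10 with all controls.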

Additional observations from a re-analysis of the deposited data

Results flagged for a closer look

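Of 132 groups of 10 libraries looked at, 24 held a library far from the others by Dixon's test of the gap to its neighbour. Chance gives about 1 group in 20 where groups are independent and values normally distributed. These CPM values were not transformed, and the groups share libraries and, in the sums, chains. The 24 therefore cannot be set against that rate. Of these, 14 were control replicate 6 at the top of its group. For single chains it had 638 CPM of Col1a1, 494 of Col1a2, 51.9 of Col5a2, 25.9 of Col11a1, 22.4 of Col11a2, 3.14 of Col2a1, 116 of Col12a1, 67.3 of Col22a1, 12.6 of Col16a1 and 11.5 of Col8a2. For sums it had 1644 CPM of fibrillar chains, 229 of FACIT chains, 2715 of all 44 chains and 579.6 of the tendon markers. The chains named here are fibrillar, FACIT and one network chain, and the tendon markers were highest in the same library. Their part in these values was not tested.

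Among space libraries, replicate 4 was the highest for Col5a3 at 68.5 CPM, for Col15a1 at 30.0 CPM, for the FACIT sum at 103 CPM and for the sum of the other chains at 99.3 CPM. Space replicate 1 was the lowest for Col6a3 at 32.7 CPM and for Col6a6 at 3.22 CPM. Both libraries are among the 4 with high Schwann markers. Single control libraries stood out for Col6a5 (replicate 2, 2.73 CPM), Col19a1 (replicate 9, 0.763 CPM), Col23a1 (replicate 7, 7.28 CPM) and the Schwann marker sum (replicate 10, 216 CPM).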

How the results depend on the processing

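Over the other scalings, tests and filters, the block and each library left out, the number of collagen chains called lower stayed between 22 and 24 and the number called higher at 6 or 7; no collagen result changed sign past the threshold. Requiring a mean of 1 CPM removed 4 chains from 3 classes and gave class medians of -0.75 for fibrillar, -0.35 for basement membrane and -0.75 for FACIT chains. With library size alone the median of all tested genes was 0.10 and 5946 genes were called higher and 3756 lower, against 4813 and 4850 with TMM scaling, and with upper-quartile factors 5840 and 4095; changes of the chains are to be read relative to that shift. Col6a6 then passed as higher (adjusted p = 0.0403 with library size alone, 0.0490 with upper-quartile factors, 0.0492 with the DESeq2 test) and Col18a1 no longer passed with library size alone (adjusted p = 0.0983). Col14a1 passed as lower with the DESeq2 test (adjusted p = 0.0452) and with limma-voom (adjusted p = 0.00567). The Col4a5 to Col4a1 ratio ranged from -0.37 to -0.26 with each library left out, and was -0.27 (adjusted p = 0.0723) with space replicates 5 to 10; the Col6a3 to Col6a1 ratio was then 0.19 (adjusted p = 0.0254). The cause of these moves was not tested.

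With the replicate number as a block, 23 chains were called lower and 6 higher, as without it. Deviations of same-numbered libraries correlated between -0.13 and 0.10, 0 of 10 pairs over 0.1, so the counts show no sign of pairing by number. Samples can be paired without such a correlation, so these values cannot decide whether the numbers pair them. Depth limits what can be said of the 6 chains below the filter and of Col2a1, Col4a6, Col9a2 and Col9a3, which lie near it, and of Mmp8 and Timp1, which passed it through 1 group. The design has no batch in the labels and no arm with a single exposure.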
